A study of Mus musculus with 12 samples.

Results

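Small expanded clones are groups of 2 to 9 T cells of 1 brain parenchyma library that carry the same T cell receptor, and 326 such clones with 994 cells were described here. They came from 4488 parenchymal cells with paired chains, which made up 2496 clones, and from 5207 paired cells in the whole series. Members were chosen by a rule on measured values. Cells entered with a single productive beta chain (TRB) and 1 or more productive alpha chains (TRA). A clone was then the CDR3 nucleotide sequence of the TRB joined to that of the TRA with the most unique molecular identifiers (UMIs), within a library. Clone size therefore chose the members, and sizes are given as a description with no test.

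CD45+ immune cells were sorted from the brain parenchyma of C57BL/6 mice labelled 5xFADTg or NonTg, and their receptor chains were sequenced per cell. 5xFADTg mice model the amyloid plaques of Alzheimer's disease through transgenes that a Thy1 promoter drives in neurons. NonTg mice lack the transgenes. There were 2 parenchyma libraries of each genotype and 1 meninges library of each, and the labels do not name the animals behind a library, so p-values measure the spread between libraries, which may be technical. The sort on CD45 takes all leukocytes, and a cell counted here as a T cell was identified by its productive chains alone, since gene expression was not analysed here.

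A T cell receptor is assembled in the thymus when V, D and J segments of the beta locus and V and J segments of the alpha locus are joined. Bases are trimmed and added at random where segments meet, and the joined stretch encodes CDR3, the loop that touches the presented peptide. Because the same joint rarely forms again, cells that share both chains at the nucleotide level are usually descendants of 1 cell. In the brain, T cells that stay in the tissue are known to build such clones.

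The 5 clones of 9 cells are the members nearest the upper limit, and their TRB CDR3 sequences are shown to make the joints visible. Letters are in lower case where the CDR3 matches the germline end of its V segment or the germline start of its J segment, and capitals mark the bases between them. The largest small clones of the remaining library, NonTg library 1, were 3 clones of 8 cells, and the one with most TRB UMIs (89) is shown last.
NonTg 2, TRBV19 with TRBJ1-4: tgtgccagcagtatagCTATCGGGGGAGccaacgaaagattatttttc
NonTg 2, TRBV12-1 with TRBJ2-3: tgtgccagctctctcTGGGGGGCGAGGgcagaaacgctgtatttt
5xFADTg 1, TRBV14 with TRBJ1-2: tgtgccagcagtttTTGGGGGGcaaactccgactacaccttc
5xFADTg 1, TRBV20 with TRBJ2-1: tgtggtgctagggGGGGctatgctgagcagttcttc
5xFADTg 2, TRBV3 with TRBJ2-2: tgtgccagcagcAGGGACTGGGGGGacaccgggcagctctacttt
NonTg 1, TRBV3 with TRBJ2-3: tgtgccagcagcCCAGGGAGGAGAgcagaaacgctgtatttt
The germline D segments that feed these capitals are TRBD1 and TRBD2, which differ in a short run of letters, so a trimmed D often cannot be told from the other.
TRBD1: gggacagggggc
TRBD2: gggactgggggggc
Among the 5 clones of 9 cells, 3 carried bases matching TRBD2 best, 1 matched both D segments equally and 1 matched neither over at least 5 bases. All 6 begin and end in lower case by construction, because a joint was marked only where at least 6 bases matched at either end.

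Most small clones were pairs of cells. Of the 326, 180 had 2 cells (55.2%), 61 had 3, 38 had 4, 19 had 5, 7 had 6, 11 had 7, 5 had 8 and 5 had 9. Just outside the limits stood 5 clones of 10 cells and 2119 clones of 1 cell, while 51 clones of 10 or more cells held 1375 cells. The clones of 9 cells came from NonTg library 2 (2 clones), 5xFADTg library 1 (2) and 5xFADTg library 2 (1), and those of 10 cells from NonTg library 1 (2), NonTg library 2 (2) and 5xFADTg library 2 (1). The mean size was 3.34 ± 1.72 cells (SD over 76 clones) in NonTg library 1, 2.82 ± 1.54 (57 clones) in NonTg library 2, 2.98 ± 1.56 (80 clones) in 5xFADTg library 1 and 3.02 ± 1.58 (113 clones) in 5xFADTg library 2.

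**Figure D1:**
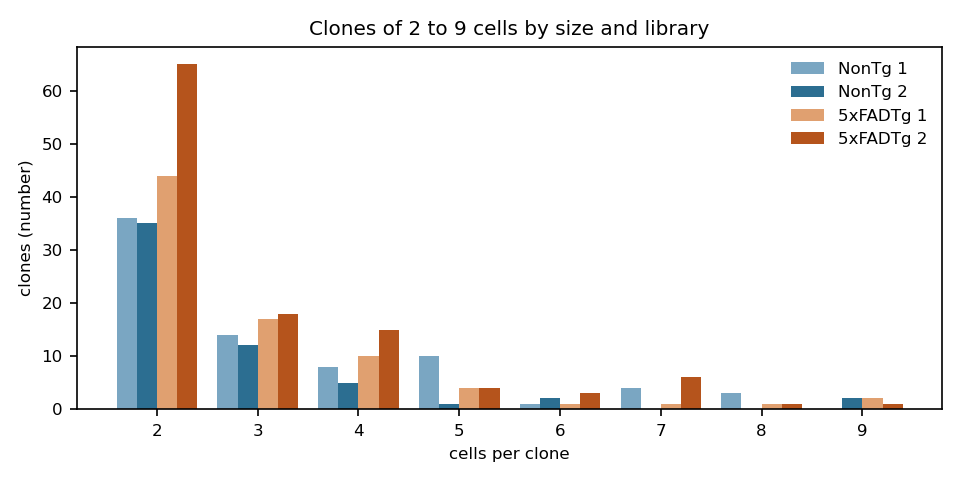
Number of clones (vertical axis) with 2 to 9 cells (horizontal axis), with 1 bar for each parenchyma library. Clones of 2 cells made the tallest bar in each library, with 36 and 35 in the NonTg libraries and 44 and 65 in the 5xFADTg libraries.

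The share of paired cells held by small clones overlapped between the genotypes. They held 254 of 1063 paired cells in NonTg library 1, or 23.9% (95% exact binomial interval 21.4 to 26.6), and 161 of 766 in NonTg library 2, or 21.02% (18.2 to 24.1). In 5xFADTg mice they held 238 of 1206 cells in library 1, or 19.7% (17.5 to 22.1), and 341 of 1453 in library 2, or 23.5% (21.3 to 25.7). The intervals cover counting error only. The 5xFADTg and NonTg ranges overlapped, with means of 21.6% ± 2.64 and 22.5% ± 2.03 (SD, n = 2 each) so that 5xFADTg minus NonTg was -0.855 percentage points, given with no test because clone size sets the share. The sign of this difference was not stable. It was 0.726 points over clones of 2 to 4 cells and 1.01 points without 5xFADTg library 1.

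The parenchyma libraries listed 2727 to 5870 contigs, with 22291984 to 26710709 reads and 101996 to 128700 UMIs, from 1001 to 2122 cells with a productive chain. Cells without a productive TRA numbered 159 to 486 per library, and cells with 2 or more TRB numbered 52 to 127. Any pair of parenchyma libraries had 1 to 2 cell barcodes and 0 clones in common.

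Variable segments were compared first between small clones and clones of 1 cell, to ask whether expansion went with particular gene segments. Of 117 segments with at least 10 clones, 3 passed an adjusted p of 0.05 (2.56% called; edgeR's quasi-likelihood test on numbers of clones, library as block, Benjamini-Hochberg adjustment). All 3 were lower in small clones and 0 were higher. Without adjustment 11 segments had p under 0.05, and DESeq2 called 0 of the same segments, with 9 under 0.05 before adjustment. TRAV11 and TRAJ18 form the invariant alpha chain of natural killer T (iNKT) cells, lipid-reactive cells that recognise CD1d, and the other call was a joint TRBV12-2+TRBV13-2 label. That label stands in the deposited files where both segments were given, and TRBV13-2 is the beta segment iNKT cells use most.

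TRAV11 (chromosome 14, bases 53519303 to 53519859 in GENCODE M21, build GRCm38, which is mm10) was found in 0 of 76 small clones of NonTg library 1, 0 of 57 in NonTg library 2, 0 of 80 in 5xFADTg library 1 and 2 of 113 in 5xFADTg library 2. In clones of 1 cell its share was 3.30%, 3.89%, 4.602% and 8.58% in the same order. Small clones were lower in every library, with a log2 fold change of -3.10 (SE 0.714, adjusted p = 0.00220, edgeR). TRAJ18 (chromosome 14, bases 54200777 to 54200842) was found in 1, 0, 0 and 4 small clones, or 1.32%, 0%, 0% and 3.54%, against 4.85%, 5.18%, 5.31% and 9.65% of clones of 1 cell. It too was lower in each of the 4 libraries, with a log2 fold change of -2.10 (SE 0.508, adjusted p = 0.00271, edgeR).

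The joint TRBV12-2+TRBV13-2 label covers neighbours on chromosome 6 (bases 41118851 to 41119364 and 41121396 to 41121832). It was given to 6.58%, 3.51%, 3.75% and 6.19% of small clones in NonTg libraries 1 and 2 and 5xFADTg libraries 1 and 2. The shares among clones of 1 cell were 10.1%, 11.4%, 10.97% and 12.1%, so each library was lower in small clones, and the log2 fold change was -1.10 (SE 0.252, adjusted p = 0.0241, edgeR). TRBV13-2 named alone was in 0 of 326 small clones and 44 of 2119 clones of 1 cell. A count of 0 of 326 allows a share of up to 0.920% for that name alone. It does not limit the use of TRBV13-2, because 17 of the 326 small clones (5.21%) had the joint label. With the joint label read as TRBV13-2, a setting chosen after seeing the data, the merged segment had a log2 fold change of -1.35 (SE 0.227, adjusted p = 0.00109, edgeR).

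Clones with an iNKT-like receptor, defined by TRAV11, TRAJ18 and a TRA CDR3 of 15 residues, were counted because TRAV11 and TRAJ18 are part of that definition. Only 2 of 326 small clones were iNKT-like (0.613%, 95% exact interval 0.0744 to 2.20), against 108 of 2119 clones of 1 cell (5.10%, 4.199 to 6.12). These intervals pool the libraries and cover counting error only. In clones of 1 cell, 49 of the 108 iNKT-like receptors (45.4%) carried the joint TRBV label. Among clones that were not iNKT-like, the label stood at 4.63% of small clones and 9.35% of clones of 1 cell. Leaving out iNKT-like clones takes away nearly all TRAV11 and most TRAJ18 clones by construction, so the fit without them says nothing about those calls. In it the joint label stood at a log2 fold change of -1.01 (adjusted p = 0.222, edgeR), and 0 of 116 segments passed, with 8 under an unadjusted p of 0.05. Without 5xFADTg library 1, 0 of 114 segments passed, with 14 under an unadjusted p of 0.05, TRAV11 and TRAJ18 both standing at an adjusted p of 0.0612 (edgeR) and the joint label at 0.138. The joint label also missed the threshold without NonTg library 2 (adjusted p = 0.153), without 5xFADTg library 2 (0.146), over clones of 2 to 4 cells (0.0745) and over clones of 3 to 9 cells (0.604, all edgeR).

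The TRA CDR3 sequences of the iNKT-like small clones, both of 2 cells in 5xFADTg library 2, are shown because they are the only members with this receptor. Capitals mark bases that match neither TRAV11 nor TRAJ18. The last line is the only small clone that was MAIT-like (TRAV1 with TRAJ33 and a TRA CDR3 of 12 residues), the receptor type of mucosal-associated invariant T cells, which recognise vitamin B metabolites. That clone had 3 cells in 5xFADTg library 1 and used TRBV5, which is not among the beta segments MAIT cells mostly use.
iNKT-like with TRBJ2-4: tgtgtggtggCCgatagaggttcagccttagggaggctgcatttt
iNKT-like with TRBJ2-5: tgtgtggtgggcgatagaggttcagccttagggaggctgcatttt
MAIT-like with TRBJ2-5: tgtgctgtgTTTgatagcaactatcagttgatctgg
Both iNKT-like clones had the joint TRBV12-2+TRBV13-2 label, 1 with bases between V and J in the alpha chain and 1 without any. MAIT-like receptors numbered 20 among the 2119 clones of 1 cell (0.944%). Against these, 1 of 326 small clones is 0.307% (95% exact interval 0.00777 to 1.70), and the intervals overlap. Here too the intervals pool the libraries and cover counting error only.

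The segments nearest to a call in the other direction were TRAV5-1, TRBV3, TRAJ21 and TRAJ26, and none passed. TRAV5-1 (chromosome 14, bases 52622566 to 52623082) was in 3, 1, 3 and 2 small clones of NonTg libraries 1 and 2 and 5xFADTg libraries 1 and 2, which is 3.95%, 1.75%, 3.75% and 1.77%. Its shares in clones of 1 cell were 0.777%, 0.518%, 0.885% and 0.459%, so all 4 libraries had a larger share in small clones, with a log2 fold change of 2.03 (SE 0.754, adjusted p = 0.147, edgeR). TRBV3 (chromosome 6, bases 41048290 to 41048828), the beta segment with most small clones, stood at 13.2%, 10.5%, 7.5% and 15.04% against 7.57%, 8.81%, 5.31% and 8.88%. The share of TRBV3 was larger in small clones of every library too, with a log2 fold change of 0.63 (SE 0.236, adjusted p = 0.242, edgeR). TRAJ21 had a log2 fold change of 1.03 (adjusted p = 0.347) and TRAJ26 of 0.80 (adjusted p = 0.473, edgeR), and each was below its 1-cell share in 1 of the NonTg libraries. Among segments with lower estimates, TRBJ1-2 (chromosome 6, bases 41534001 to 41534048) was in 3.95%, 3.51%, 6.25% and 0.885% of small clones against 6.80%, 6.48%, 6.73% and 8.88% of clones of 1 cell, and its log2 fold change was -1.13 (SE 0.376, adjusted p = 0.107, edgeR).

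**Figure D2:**
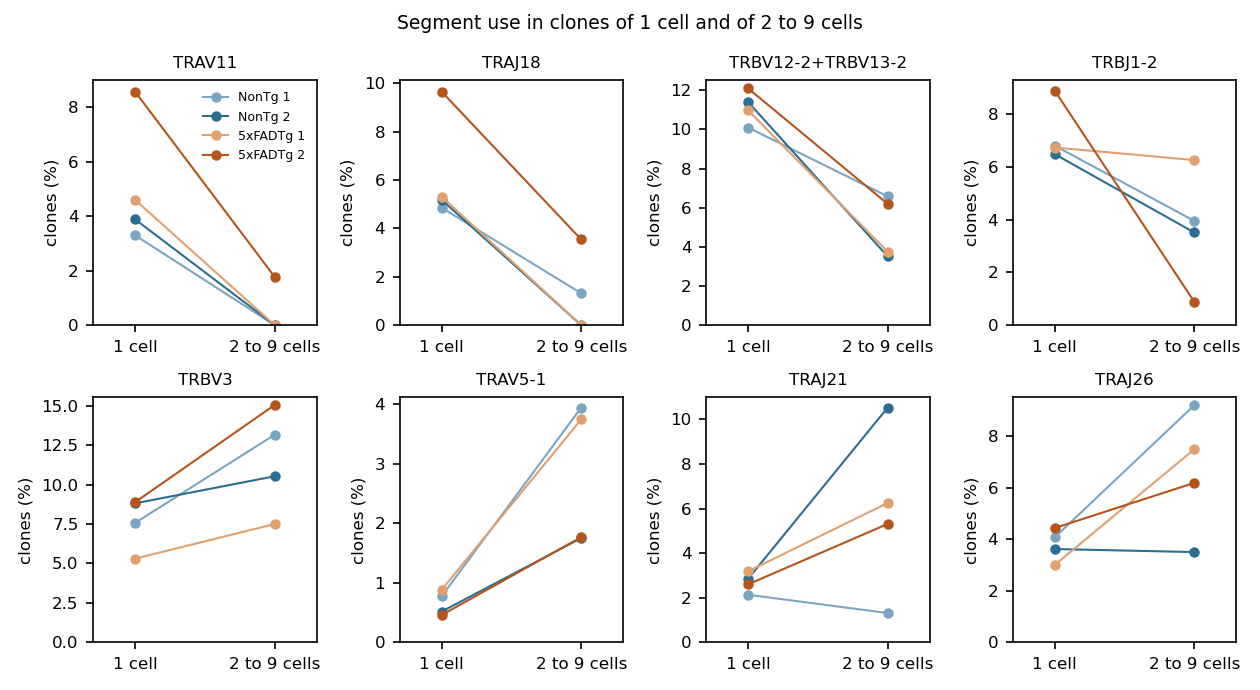
Percent of clones (vertical axis) that used each of 8 segments among clones of 1 cell and of 2 to 9 cells, with 1 line for each parenchyma library. TRAV11, TRAJ18, the joint TRBV label and TRBJ1-2 run down in all 4 libraries, TRBV3 and TRAV5-1 run up in all 4, and TRAJ21 and TRAJ26 each run down in 1.

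Small clones used a broad repertoire. They held 21 of 22 TRBV segments or labels seen in clones of 1 cell, 12 of 12 TRBJ, 43 of 49 TRAV and 42 of 43 TRAJ. Near-identical TRAV copies were counted together, except TRAV15 copies with DV6D in their name, which stayed apart. After TRBV3 with 39 small clones (11.96%) came TRBV19 with 30, TRBV12-2 with 25, and TRBV12-1 and TRBV13-3 with 24 each. Their log2 fold changes against clones of 1 cell were 0.52, 0.56, 0.56 and -0.04, and none passed (edgeR). TRBJ2-7 led the beta J segments with 56 small clones, or 17.2% against 19.35% of clones of 1 cell, ahead of TRBJ1-1 with 44 and TRBJ2-5 with 42. In the alpha chain TRAV16 had 24 small clones, TRAV12-2 had 23, TRAV3-3 had 22, TRAV6-6 had 17, and TRAV13-1 and TRAV6-7 had 16 each. TRAJ22 had 27, TRAJ26 had 22, TRAJ21 and TRAJ30 had 18 each, and TRAJ31 and TRAJ37 had 16 each.

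Lists of neighbouring segments lay close to the median of all 117, which was -0.01 on the log2 scale. The 6 TRBJ1 segments had a median log2 fold change of -0.09 with 0 called, and the 6 TRBJ2 segments had 0.11 with 0 called. Early alpha rearrangements use TRAJ segments near the V side of the locus. The 22 TRAJ segments from TRAJ61 to TRAJ31 on that side had a median of -0.14 with 0 called, and the 21 from TRAJ30 to TRAJ2 had 0.25 with 1 called lower, TRAJ18. TRBV segments known from iNKT cells (5 tested) had a median of -0.52 and those known from MAIT cells (4 tested) of -0.28, each with 0 called, and 3 segments are on both lists. Both lists count TRBV13-2 named alone, with a log2 fold change of -5.69 (adjusted p = 0.0732, edgeR). They leave out the joint TRBV12-2+TRBV13-2 label, which was called lower.

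Pairing of V segments was diverse. The 326 small clones spread over 237 TRBV and TRAV pairs, of which 176 were seen in 1 small clone each. At most 6 small clones had the same pair, and this held for TRBV29 with TRAV3-3, seen in all 4 libraries, and for TRBV3 with TRAV16, seen in 3.

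Between genotypes, no segment passed within small clones. Of 49 segments with at least 10 small clones, 0 were called (0% called; edgeR, Benjamini-Hochberg adjustment), 2 were under 0.05 before adjustment, and DESeq2 also called 0 and had 1 under 0.05. TRBV17 was in 5 and 3 small clones of the NonTg libraries and in 0 and 2 of the 5xFADTg libraries, with a log2 fold change of -2.37 (SE 0.982, adjusted p = 0.759, edgeR). TRAV6-7 was in 7 and 4 against 2 and 3, with a log2 fold change of -1.62 (SE 0.739, adjusted p = 0.759, edgeR). TRBV29 ran the other way, with 2 and 3 against 9 and 9 small clones and a log2 fold change of 1.28 (SE 0.749, adjusted p = 0.993, edgeR). TRAJ48 had a log2 fold change of 1.54, TRAV3-3 of 0.86 and TRAJ22 of -0.63, each with an adjusted p of 0.993 (edgeR). Whether the size difference itself depended on genotype was tested over 117 segments, of which 0 were called (0% called; edgeR interaction term), 2 being under 0.05 before adjustment, while DESeq2 also called 0 and had 1 under 0.05. TRBV17 had the smallest p of that test as well (log2 difference -3.54, SE 1.29, adjusted p = 0.753, edgeR).

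CDR3 lengths lay close together in both size classes. TRB CDR3s of small clones had means of 13.96, 13.95, 14.01 and 14.10 amino acids in NonTg libraries 1 and 2 and 5xFADTg libraries 1 and 2, against 14.13, 13.89, 13.94 and 14.04 in clones of 1 cell. The mean difference over the libraries was 0.00455 residues (exact sign-flip p = 1; 4 libraries cannot go below 0.125). TRA CDR3s had means of 13.7, 13.7, 13.6 and 13.5 amino acids against 13.6, 13.7, 13.7 and 13.8, a mean difference of -0.0626 residues (exact sign-flip p = 0.750). TRB lengths ran from 8 to 17 residues in small clones, 14 being the most common with 98 clones and 15 next with 85, and TRA lengths ran from 8 to 19, with 94 clones at 13 and 89 at 14.

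Inside CDR3, the middle bases are those that match neither the germline V end nor the germline J start, and in TRB they hold what remains of the D segment and the added bases. Small clones had 10.2, 9.89, 10.6 and 10.6 middle TRB bases on average in NonTg libraries 1 and 2 and 5xFADTg libraries 1 and 2, against 10.2, 9.85, 9.84 and 10.0 in clones of 1 cell. The excess over clones of 1 cell was 0.651 bases in the 5xFADTg libraries and 0.0264 in the NonTg libraries. Over the 4 libraries it was 0.338 bases (SD 0.369, exact sign-flip p = 0.125, adjusted p = 0.425 over 17 measures). Between genotypes, small clones of 5xFADTg mice had 10.6 ± 0.00811 middle TRB bases and those of NonTg mice 10.1 ± 0.232 (SD, n = 2 each; exact permutation p = 0.333, the smallest possible, adjusted p = 0.567). A TRB junction could be read in 311 of the 326 small clones, and 14 of the others used TRBV10, which had no matching germline entry under its name.

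The alpha chain has no D segment, so its middle bases come from additions at the joint. Small clones had 2.84, 2.88, 2.47 and 2.43 middle TRA bases in NonTg libraries 1 and 2 and 5xFADTg libraries 1 and 2, against 2.63, 2.68, 2.71 and 2.63 in clones of 1 cell. Both NonTg libraries were higher and both 5xFADTg libraries lower in small clones, and the small clones of the genotypes did not overlap (2.45 ± 0.0296 in 5xFADTg, 2.86 ± 0.0247 in NonTg; SD, n = 2 each; exact permutation p = 0.333, the smallest possible, adjusted p = 0.567). Such a lack of overlap was not particular to this measure. Of the 18 measures, the others without overlap were both CDR3 lengths, middle TRB bases, TRBJ1 segments, TRBC1, a further TRA and hydropathy. TRB proteins in another library and clones found in the meninges also belonged to them. Those with overlap were a listed D, TRBD1 among listed D, TRAJ61 to TRAJ31, iNKT-like, MAIT-like, UMIs of either chain and a nonproductive contig. With 2 libraries against 2, each measure without overlap has the same exact permutation p of 0.333. No middle TRA base was found in 58 of 320 small clones with a readable junction (18.1%), against 16.5% of clones of 1 cell.

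**Figure D3:**
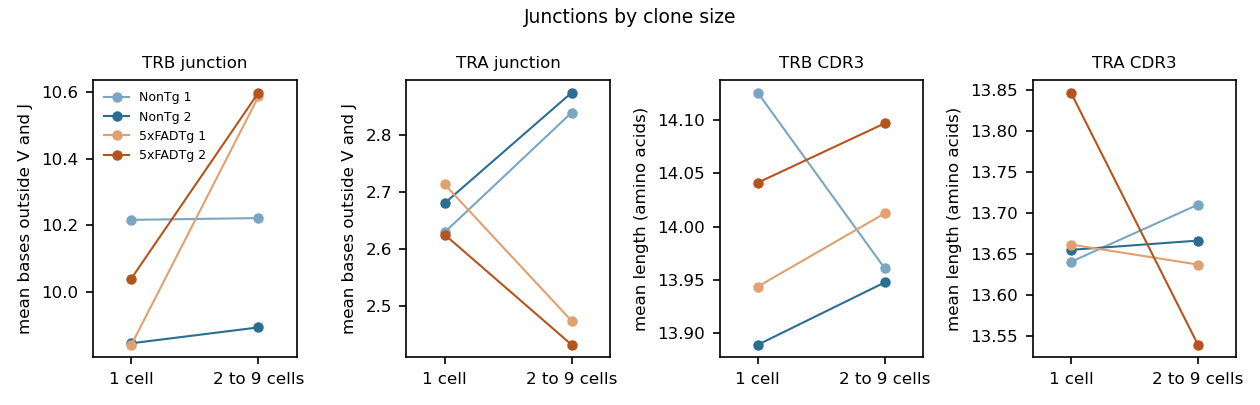
Mean number of bases outside germline V and J (left pair of panels) and mean CDR3 length in amino acids (right pair) for TRB and TRA, in clones of 1 cell and of 2 to 9 cells, with 1 line for each parenchyma library. The vertical axes do not start at 0. The TRB lines of the 5xFADTg libraries rise to 10.6 bases, and the TRA lines of the genotypes cross.

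D segments were listed for few chains. The deposited D call was filled in for 11 of 326 small clones (3.37%), 9 of them TRBD1, and for 61 of 2119 clones of 1 cell (2.88%), 38 of them TRBD1. Matching the middle bases to the germline D sequences shown above gave TRBD1 for 127 small clones, TRBD2 for 91, both equally for 16 and neither for 77. TRBD1 was thus the better match in 58.3% of small clones matched to 1 D, against 54.3% of clones of 1 cell. TRBD2 lies between the TRBJ1 and TRBJ2 clusters on chromosome 6 (bases 41542163 to 41542176), so a TRBJ1 segment normally follows TRBD1, and of TRBJ1 small clones 59 matched TRBD1 and 6 matched TRBD2. Of TRBJ2 small clones 68 matched TRBD1 and 85 matched TRBD2.

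Constant genes followed the J cluster. All 105 TRBJ1 small clones with a constant gene listed had TRBC1, and all 220 TRBJ2 small clones had TRBC2, which lie next to their J clusters. TRBJ1 segments were used by 30.3%, 29.8%, 33.8% and 34.5% of small clones in NonTg libraries 1 and 2 and 5xFADTg libraries 1 and 2, against 32.8%, 35.5%, 33.6% and 36.9% of clones of 1 cell. The mean difference was -2.62 percentage points (exact sign-flip p = 0.250), and the share was lower in 3 of 4 libraries. Across the alpha locus, 47.4%, 31.6%, 47.5% and 40.7% of small clones used TRAJ61 to TRAJ31, against 52.0%, 45.1%, 47.6% and 44.3%. All 4 libraries were lower in small clones, by -5.46 points on average (exact sign-flip p = 0.125, adjusted p = 0.425), but the difference was 0.491 points over clones of 3 to 9 cells.

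The middle of the TRB loop was also scored for hydropathy on the Kyte-Doolittle scale, where higher values are more hydrophobic, with 4 residues left out at each end. Small clones had means of -1.02, -1.17, -1.21 and -1.22 in NonTg libraries 1 and 2 and 5xFADTg libraries 1 and 2, against -1.08, -1.21, -1.07 and -1.14 in clones of 1 cell. Both NonTg libraries lay above their clones of 1 cell and both 5xFADTg libraries below (mean difference -0.0303, exact sign-flip p = 0.625).

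A cell can express a further productive TRA, because alpha rearrangement goes on at both alleles. In small clones 98 of 994 cells (9.86%) had 2 productive TRA and 0 had more, against 11.3% of clones of 1 cell. By library the share in small clones was 11.8%, 11.2%, 10.9% and 7.04% in NonTg libraries 1 and 2 and 5xFADTg libraries 1 and 2, against 9.71%, 11.1%, 12.6% and 11.5% (mean difference -0.987 percentage points, exact sign-flip p = 0.750). Both 5xFADTg libraries were lower in small clones and both NonTg libraries higher. The further TRA was shared within clones: 47 small clones had at least 1 such cell, and in all 29 with at least 2 the cells had the same further TRA. It was seen in every cell of 18 of the 47.

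In 50 small clones (15.3%) the TRB nucleotide sequence also occurred with another TRA in the same library, against 3.59% of clones of 1 cell. The share was 23.7%, 14.04%, 13.8% and 11.5% in NonTg libraries 1 and 2 and 5xFADTg libraries 1 and 2, above the 3.50%, 3.37%, 3.36% and 3.98% of clones of 1 cell in each library. The other TRA belonged to a clone of 1 cell for 27, to another small clone for 20 and to a clone of 10 or more cells for 5, some having more than 1 partner. In 41 of the 50, cells of the small clone or its partner listed the TRA of the other as a further TRA. This share and those that follow were not corrected for the number of cells in a clone. The 9-cell TRBV12-1 clone of NonTg library 2 is shown with its partner because it has the largest number of cells among these small clones, and both have the TRB printed second in the list of 9-cell clones.
TRA of the 9-cell clone, TRAV9D-3 with TRAJ22: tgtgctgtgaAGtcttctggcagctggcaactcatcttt
TRA of the 22-cell clone, TRAV15D-1-DV6D-1 with TRAJ15: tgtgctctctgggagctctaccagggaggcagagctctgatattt
A further TRA was listed in 3 of the 9 cells. A clone count by paired sequence splits such cells by which TRA had more UMIs, and joining clones on TRB alone moved 9 of 326 small clones to 10 or more cells and kept 317 at 2 to 9.

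The TRB of 74 small clones (22.7%) also occurred in cells of the library that had 1 TRB and no productive TRA, 135 such cells in all, against 2.78% of clones of 1 cell. By library these were 26.3%, 17.5%, 17.5% and 27.4% of small clones in NonTg libraries 1 and 2 and 5xFADTg libraries 1 and 2, and 2.33%, 2.33%, 3.19% and 3.52% of clones of 1 cell. Adding those cells to the 276 small clones whose TRB occurred in no other clone would have enlarged 66 of them (23.9%), 7 of them to 10 or more cells.

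Receptor UMIs overlapped between the size classes. Median TRB UMIs per cell were 7, 8, 8 and 8 in small clones of NonTg libraries 1 and 2 and 5xFADTg libraries 1 and 2, and 8, 8, 9 and 9 in clones of 1 cell (exact sign-flip p = 0.250). Median TRA UMIs were 46.5, 62, 48 and 40 against 51, 63.5, 51 and 36 (exact sign-flip p = 0.5). A nonproductive TRA or TRB contig was listed in 52.0%, 55.3%, 54.6% and 51.3% of small-clone cells against 48.0%, 51.8%, 55.2% and 53.1% (exact sign-flip p = 0.5). Cells of 1 clone gave the same segment calls in nearly all cases: TRBJ, TRAV and TRAJ differed within 0 of 326 small clones, TRBV within 2 and TRBC within 5, while the deposited clonotype identifier differed within 29.

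**Figure D4:**
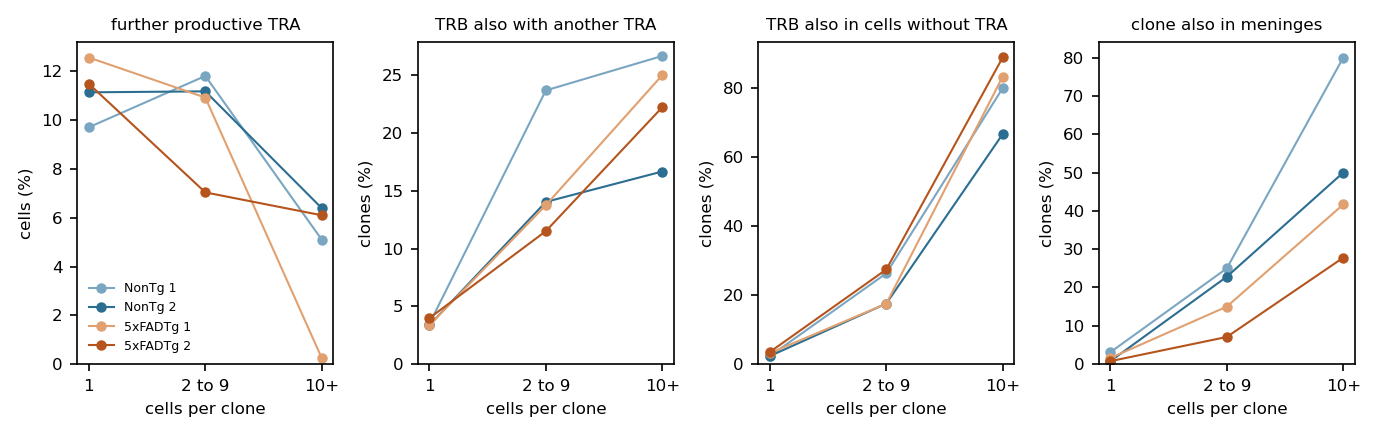
Percent of cells with a further productive TRA, and percent of clones whose TRB also occurred with another TRA, whose TRB also occurred in cells without TRA, or which were also found in the meninges of the genotype (vertical axes), by cells per clone (horizontal axis), with 1 line for each parenchyma library. For the last 3 measures small clones lie between clones of 1 cell and of 10 or more cells in each library.

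In every library a larger share of small clones than of clones of 1 cell was also found in the meninges. The meninges are the membranes around the brain, and 1 meninges library of each genotype was compared with both parenchyma libraries of that genotype. The same nucleotide pair occurred there for 52 of 326 small clones (16.0%, 95% exact interval 12.1 to 20.4), against 33 of 2119 clones of 1 cell (1.56%, 1.07 to 2.18). These intervals pool the libraries and cover counting error only, not the spread between libraries. The shares were 25%, 22.8%, 15% and 7.08% of small clones in NonTg libraries 1 and 2 and 5xFADTg libraries 1 and 2, and 3.11%, 0.777%, 1.59% and 0.766% of clones of 1 cell. All 4 libraries were higher in small clones (mean difference 15.9 percentage points, SD 7.56, exact sign-flip p = 0.125, adjusted p = 0.425). Clone size chose the members, and these shares were not corrected for the number of cells in a clone. Whether the difference goes beyond that number was not tested. Among small clones, both NonTg libraries lay above both 5xFADTg libraries (23.9% ± 1.55 against 11.04% ± 5.60; SD, n = 2 parenchyma libraries each; exact permutation p = 0.333, adjusted p = 0.567). Both values of a genotype rest on its 1 meninges library, so genotype cannot be told apart from that library here. No small clone occurred in the meninges of the other genotype, and 0 of 326 allows a share of up to 0.920%.
The small clones with most meningeal cells are shown for each genotype, with 5 meningeal cells for NonTg and 4 for 5xFADTg. Each had 4 parenchymal cells. The TRBV10 joint has no capitals because no germline V letters were matched.
NonTg 2, TRBV14 with TRBJ1-1: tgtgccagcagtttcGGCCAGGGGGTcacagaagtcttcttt
5xFADTg 2, TRBV10 with TRBJ2-4: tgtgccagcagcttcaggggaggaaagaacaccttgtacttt
Their alpha chains were TRAV3-1 with TRAJ21 and TRAV6-1 with TRAJ26.

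No clone was common to 2 parenchyma libraries, but some TRB proteins were. The TRB amino acid CDR3 of 14 small clones (4.29%) was present in another parenchyma library, against 36 clones of 1 cell (1.70%). By library this was 3.95%, 8.77%, 2.5% and 3.54% of small clones in NonTg libraries 1 and 2 and 5xFADTg libraries 1 and 2, against 2.33%, 1.55%, 1.24% and 1.68%. Each library was higher in small clones (mean difference 2.99 percentage points, SD 2.83, exact sign-flip p = 0.125, adjusted p = 0.425), at 2 to 5 small clones per library. For 15 small clones (4.601%) the TRB protein was also encoded by another nucleotide sequence in some parenchymal clone.

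The TRB protein with most clones among these is shown because it recurred in 3 libraries through different joints. It joins TRBV3 to TRBJ1-3, has 15 residues, and was carried by 7 clones with 16 cells, 4 of them small, through 3 nucleotide sequences.
5xFADTg 1, clones of 5, 3 and 1 cells: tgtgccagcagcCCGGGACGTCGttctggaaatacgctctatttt
5xFADTg 2, clones of 3 and 1 cells, and NonTg 2, clone of 1 cell: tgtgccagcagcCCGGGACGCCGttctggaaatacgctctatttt
5xFADTg 2, clone of 2 cells: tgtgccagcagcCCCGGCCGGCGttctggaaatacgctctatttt
Counted from 1 at the first base shown, the second sequence differs from the first by T21C, and the third differs from the first by G15C, A18C and T21G. All 7 clones had different alpha chains: the 5-cell clone had TRAV14-2 with TRAJ26 and the 3-cell clone of the same library TRAV6-7-DV9 with TRAJ31. Cells of these clones listed the TRA of the other as a further TRA. Each of the 4 small clones had a highest TRB count of 17 to 26 UMIs in 1 cell, and all their cells had at least 2.

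A protein of 12 residues joined small clones of both NonTg libraries, TRBV29 with TRBJ2-3 in each.
NonTg 1, clone of 8 cells: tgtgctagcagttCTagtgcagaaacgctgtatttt
NonTg 2, clone of 2 cells: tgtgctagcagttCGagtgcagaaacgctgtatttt
The change is T15G from the 8-cell to the 2-cell clone, counted as above. Both had TRAJ22, with TRAV3D-3 in the first and TRAV3-3 in the second, and the 8-cell clone was also found in 3 meningeal cells.

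The 9-cell TRBV3 clone of 5xFADTg library 2 printed above had a near twin in the same library. A clone of 15 cells there had the same alpha chain, TRAV13-1 with TRAJ48, base for base, and a TRB that differed at 1 base and encoded the same protein.
TRB of the 9-cell clone: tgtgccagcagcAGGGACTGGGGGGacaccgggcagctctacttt
TRB of the 15-cell clone: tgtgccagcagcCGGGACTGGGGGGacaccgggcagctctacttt
TRA of both: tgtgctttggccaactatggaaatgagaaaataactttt
The change is A13C from the 9-cell to the 15-cell clone, in the first base after the germline V letters. The 9-cell form rested on 81 TRB UMIs, with a median of 8 per cell and 8 of 9 cells having at least 2, and the 15-cell form on 226 UMIs, with a median of 16 per cell. The TRB of the 15-cell clone also occurred in 1 cell of NonTg library 2, with TRAV13-1 and TRAJ57. Counted by amino acid pair the twins were 1 clone, which left 325 of 326 small clones at 2 to 9 cells.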

How the data were processed

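Per the labels' protocols, receptor libraries came from the v2 Chromium kit for immune profiling of single cells. The deposited lists give, per assembled contig, its segments, CDR3, productive status and raw counts of reads and UMIs, per the file headers. Contig length in bases was not used. The submitters' processing notes name Cell Ranger 6.0 and mm10, and their filters were not given in the sources used here. Cells with 2 or more TRB, which can be doublets, were left out, and no other doublet filter was run.

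The members, lists and tests were chosen with earlier results of these data known. Numbers of clones per segment were tested with edgeR 4.0.16 (limma 3.58.1, R 4.3.3) at an adjusted p of 0.05. The number of clones was the library size, and segments of at least 10 clones were tested. TRAV copies named D or N were joined with their near-identical originals, except TRAV15 copies with DV6D in their name. The fits and the junction search were tested on simulated data. Of 10 simulated 2-fold changes, the size fit recovered 5, the genotype fit 0 and the interaction fit 2. Of 10 simulated 4-fold changes they recovered 10, 10 and 5, with 0 false calls in each. A count of 0 called segments therefore cannot exclude 2-fold differences. For the interaction fit it cannot exclude 4-fold differences either. The other measures were compared with two-sided exact sign-flip tests over 4 libraries (smallest p 0.125) or exact permutation of 2 against 2 (smallest 0.333), adjusted over 17 measures, so that none can pass 0.05. Germline V, D and J sequences and positions came from GENCODE M21 (GRCm38), with matches of at least 6 bases at either end and of at least 5 for D. Segments were named by rule: each call, the 5 TRBV, 5 TRAV, 3 TRBJ and 5 TRAJ with most small clones (ties kept), and the 3 smallest p in each direction of the size and genotype fits. The size results of TRBJ1-2 and of TRBV13-2 named alone were given outside this rule. Shares carry exact binomial intervals of 95%, and a count of 0 allows 3 counts, for counting error only. Alternatives were DESeq2 1.42.0, TMM factors, no count filter, TRAV copies apart, other clone identities and sizes, at least 2 UMIs per chain, the expected share at the cell number of the smallest library, iNKT-like clones left out, cells counted in place of clones, the replicate number as block and each library left out. Merging the joint TRBV label, and leaving out clones that share a TRB, were added after the data were seen. Scripts ran in Python 3.11.15 with scipy 1.17.1, pandas 2.3.3, matplotlib 3.10.9 and numpy 2.4.6.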

Additional observations from a re-analysis of the deposited data

Results flagged for a closer look

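In 5 of 18 measures both 5xFADTg libraries moved one way from clones of 1 cell to small clones and both NonTg libraries the other way. These differences between genotypes were not tested, and the measures are not independent. Some moves were very small. In NonTg library 2, TRA CDR3 length went from 13.66 to 13.67 residues and the share with a further TRA from 11.14% to 11.18%. The size difference in TRA CDR3 length was -0.166 residues in 5xFADTg and 0.0405 in NonTg, a gap of -0.206. In TRA bases outside V and J it was -0.217 in 5xFADTg and 0.202 in NonTg, a gap of -0.419. The share of cells with a further TRA moved by -3.04 percentage points in 5xFADTg and 1.07 in NonTg, a gap of -4.12. The share of cells with a nonproductive contig moved by -1.21 points in 5xFADTg and 3.74 in NonTg, a gap of -4.95. Hydropathy of the middle TRB residues moved by -0.110 in 5xFADTg and 0.0498 in NonTg, a gap of -0.160.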

How the results depend on the processing

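The count of 3 called segments between small clones and clones of 1 cell became 0 without iNKT-like clones, 0 with DESeq2 and 5 with TMM factors, which moved the median log2 fold change of all segments from -0.01 to -0.27. It was 0 to 3 when 1 library was left out, 0 being without 5xFADTg replicate 1. Within small clones and for the dependence on genotype, 0 segments passed in every alternative run (edgeR or DESeq2). With the replicate number as block, 0 of 49 segments passed between genotypes and the difference in the share of cells in small clones stayed -0.855 percentage points. Same-numbered libraries did not deviate together (r = -0.0407 across 49 segments, which are not independent). With 2 libraries per genotype and few clones per segment, this cannot tell whether the numbers pair the samples. That share's difference was 0.416 points when every 1-TRB cell was grouped by TRB only and 0.726 over clones of 2 to 4 cells, and -2.72 to 1.01 when 1 library was left out.

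Some measures changed sign, and the cause was not tested. Against clones of 1 cell, TRB CDR3 length differed by -0.0206 residues by TRB alone, -0.0456 by deposited identifier and -0.0638 over clones of 3 to 9 cells. TRA middle bases differed by 0.0494, 0.0106 and 0.0190 in the same order, and a listed D by -0.164 points by deposited identifier, -1.17 over 3 to 9 cells and -0.157 without shared TRB. Over 3 to 9 cells TRAJ61 to TRAJ31 stood at 0.491 points, TRA UMIs at 0.375 and hydropathy at 0.0556. A further TRA stood at 1.53 points by TRB alone and a nonproductive contig at -0.368 by deposited identifier. Between genotypes, a listed D stood at 0.0892 by TRB alone and 0.833 over 3 to 9 cells, a further TRA at 0.823 without shared TRB, and a nonproductive contig at 0.165 by TRB alone and 1.68 by deposited identifier. Leaving out 1 library moved the difference from clones of 1 cell between -0.0170 and 0.0613 residues for TRB length, -0.107 and 0.0188 for TRA length, -0.0797 and 0.0703 for TRA middle bases, -0.525 and 1.27 points for a listed D, -2.02 and 0.167 for a further TRA, and -0.0611 and 0.00608 for hydropathy. Between genotypes it ran from -3.51 to 1.801 points for a listed D, -3.26 to 12.5 for TRAJ61 to TRAJ31 and -2.31 to 1.002 for a nonproductive contig.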
